A study of Mus musculus with 18 samples.

Results

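The dip genes were 98 protein-coding genes whose mRNA was low in preNeu and higher both before and after it. They were chosen by their measured level, in TPM (transcript abundance per gene length, scaled so that each library sums to the same total): the mean was at least 10 TPM in GMPs and in matNeu, and each of these means was at least 3 times the preNeu mean. The table held 34896 genes, of which 19580 were protein-coding, and 4289 of these reached 10 TPM in both GMPs and matNeu. Members of the Jun, Fos, Atf, Nfkb, Rel, Klf, Ccl, Slc and Zfp families were left out, which removed 9 genes that otherwise met the rule (6 Slc genes, Jun, Ccl9 and Zfp874a). These families held 164 of the 4289 genes, and the dip genes were 2.38% of the other 4125. Because the levels in the 3 cell types chose these genes, the dip itself is given here as a description and no test of it is reported.

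All cells came from the bone marrow of C57BL/6 mice aged 6 to 12 weeks. The study followed neutrophil development through granulocyte-monocyte progenitors (GMPs), proliferating committed precursors (preNeu) and mature neutrophils (matNeu), and asked where GFI1, a transcriptional repressor, meets CHD4, the helicase of the nucleosome remodelling and deacetylase (NuRD) complex. RNA was measured in 3 WT libraries of each type, and CHD4 was mapped by ChIP-seq in 1 library of WT GMPs and 1 of Gfi1-/- GMPs. The histone mark H3K4me2 was mapped in 1 WT library each of GMPs, preNeu and matNeu, and open chromatin (ATAC-seq) in WT preNeu and matNeu. GMPs were sorted as lineage-negative, cKIT+ cells with CD34 and CD16/32 but no SCA1. preNeu and matNeu were gated on Mac-1 and Gr-1, with cKIT and CXCR4 for preNeu and CXCR2 for matNeu. For 13 of the 18 samples, all 9 RNA libraries among them, the title and the cell type label named different cells. Groups followed the titles. In the RNA libraries marker levels went with the titles, whereas the chromatin libraries could not be checked in this way. Cd34, a progenitor antigen, was at 469.9 ± 39.0 TPM in GMPs, 2.21 ± 1.02 in preNeu and 1.92 ± 0.402 in matNeu (SD, n = 3). The granule gene Ltf was at 6.13 ± 1.86 TPM in GMPs, 25388 ± 1952 in preNeu and 467 ± 96.8 in matNeu. The chemokine receptor gene Cxcr2 was at 9.23 ± 2.30 TPM in GMPs, 76.4 ± 15.1 in preNeu and 3468 ± 478 in matNeu. Nothing in the labels says that the 3 libraries of a type came from separate animals, so errors and p-values measure the spread between these libraries.

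Granule proteins are made in successive waves as neutrophils mature, and preNeu, the dividing stage, devote much of their mRNA to them. A neutrophil that leaves the marrow also needs receptors, adhesion molecules, interferon-response genes and lysosomal enzymes. NuRD remodels nucleosomes and removes acetyl groups from histones, and H3K4me2 marks promoters and enhancers that are active or poised. In these libraries the 10 most abundant genes held between 24.1% and 28.3% of all TPM in preNeu, against 9.15% to 9.78% in GMPs and 12.7% to 15.9% in matNeu, and TPM values add up to a fixed total in every library. The rule was therefore applied a second time after rescaling.

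The deepest dip was that of Fabp5, which encodes a fatty acid-binding protein. Fabp5 stood at 26.8, 41.3 and 30.1 TPM in the 3 GMP libraries, 0.469, 0.475 and 0.441 in preNeu and 52.0, 50.2 and 34.2 in matNeu. The preNeu libraries were below 1 TPM throughout, and the lower of the other means was 70.9 times the preNeu mean. Across the dip genes this ratio had a median of 4.30 and ranged from 3.0 to 70.9. It was at least 10 for 16 genes and at least 5 for 43. The mean preNeu level was below 10 TPM for 69 genes and below 5 TPM for 50, while 12 genes were at 100 TPM or more in both GMPs and matNeu. In sum, the dip genes made up 10097 to 11757 TPM per GMP library, 1679 to 1853 TPM per preNeu library and 17961 to 18810 TPM per matNeu library. In such bulk libraries fewer cells of a type and less RNA per cell cannot be told apart.

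For 95 of the 98 genes the highest preNeu library was below the lowest GMP or matNeu library, which was true of 8.03% of the 13061 genes tested, and the rule used that contrast. The exceptions were Gm10181, Gm11032 and Rab34. Gm10181 stood at 20.4, 179.8 and 59.6 TPM in the 3 GMP libraries, 0, 39.9 and 0 in preNeu and 366, 158 and 0 in matNeu, so that the matNeu libraries alone spanned from 0 to the highest value. Rab34, a small GTPase of the secretory and ciliary pathways, was at 20.8, 15.0 and 8.13 TPM in the 3 GMP libraries, 5.18, 6.29 and 0.478 in preNeu and 97.8, 82.8 and 2.49 in matNeu, with matNeu replicate 3 below preNeu replicates 1 and 2. Single libraries also stood apart for a few genes. These departures were counted on TPM + 1. On that scale 9 dip genes were more than 2-fold off the median of their type in preNeu replicate 3. The number was 6 in matNeu replicate 3 and at most 3 in any other library. Adding 1 shrinks differences between low values, so that genes more than 2-fold off in TPM itself can be left out of these counts.

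**Figure D1:**
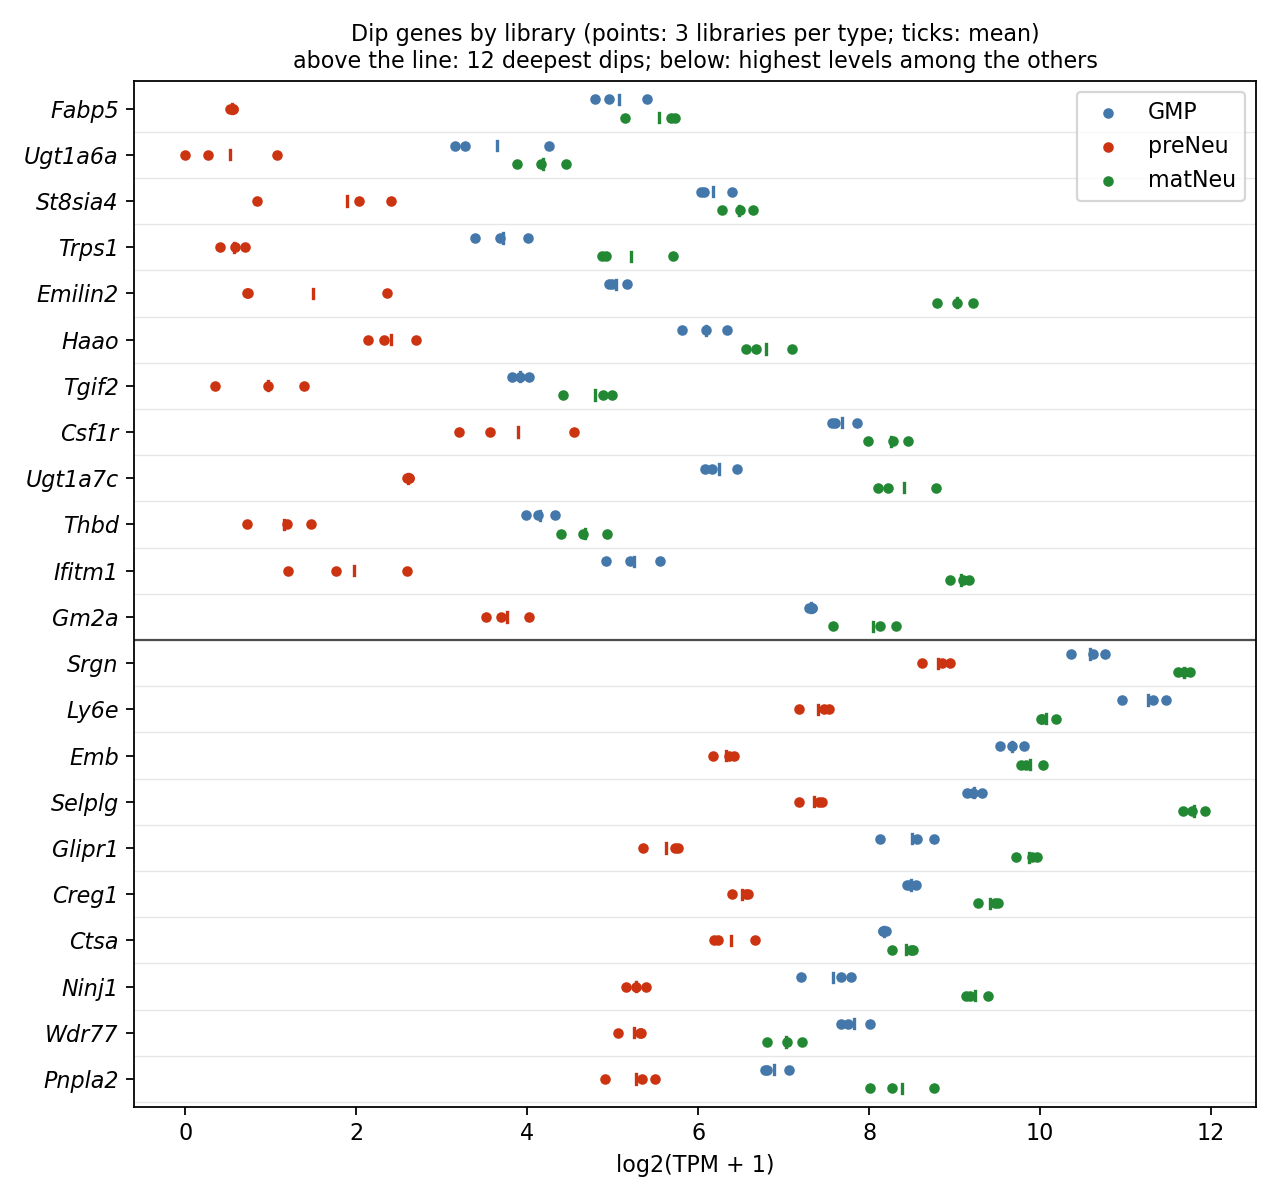
Level of 22 dip genes on the log2(TPM + 1) scale (x axis) in each of the 3 GMP, 3 preNeu and 3 matNeu libraries (points), with ticks at the log2 of the mean + 1. The upper 12 genes have the deepest dips and the lower 10 the highest levels among the others; in each row the preNeu points lie to the left of all GMP and matNeu points.

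The TPM of a library depends on its most abundant genes, so the rule was applied again after median-ratio rescaling, in which each library is divided by the median of its ratios to a typical library. The factors were 1.41 to 1.44 for GMPs, 0.915 to 1.05 for preNeu and 0.733 to 0.803 for matNeu, so that rescaling lowered GMP values and raised matNeu values. Under it 51 of the 98 dip genes met the rule and 47 did not, and 11 other genes met it, for 62 in all. Of the 47, the preNeu mean exceeded the permitted share of the GMP mean for 37, and the GMP mean was under 10 TPM for 16 (6 genes failed both). None failed on the matNeu side. Fabp5, St8sia4, Csf1r, Emb, Gm2a and Ly6e were among the 51, whereas Srgn, Selplg, Creg1 and Ctsa were among the 47.

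Near the limits the rule separated genes of almost equal values. The last genes inside the ratio were Ccdc28a, Olfr784 and Cstb, with preNeu means of 0.333, 0.331 and 0.330 times the lower of the other means. The first outside were Aim2, Tpd52 and Mmachc, at 0.338, 0.340 and 0.341. L3mbtl3, Tgtp2 and D10Wsu102e entered with matNeu means of 10.1, 10.2 and 10.4 TPM, whereas Acot2, Tecpr1 and Rbm47 stayed out with GMP means of 9.57, 9.52 and 9.49 TPM.

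The genes were sorted into groups by their known roles after their values had been seen, so these groups are a description and were not tested. The group of surface receptors, adhesion and glycosylation genes held 14 members with a median ratio of 7.91, and 12 of them also met the rule after rescaling. All 14 had a higher mean in matNeu than in GMPs, with medians of 32.8 TPM in GMPs, 3.81 in preNeu and 216 in matNeu. St8sia4, a sialyltransferase that builds polysialic acid, was at 83.0, 64.2 and 66.2 TPM in the 3 GMP libraries, 3.09, 0.788 and 4.29 in preNeu and 88.9, 76.8 and 98.6 in matNeu. Csf1r, the receptor for M-CSF and a monocyte marker, stood at 232, 192 and 188 TPM in the 3 GMP libraries, 8.22, 10.9 and 22.3 in preNeu and 309, 253 and 349.6 in matNeu. Its preNeu libraries lay far below the others, and the GMP and matNeu libraries did not overlap. By the limma test given below, its difference between GMPs and matNeu did not pass (log2 difference 0.57, adjusted p = 0.095). It passed only after rescaling (1.45, adjusted p = 4.99e-04). Emb, the adhesion molecule embigin, was at 896, 811 and 739 TPM in the 3 GMP libraries, 71.4, 80.9 and 84.9 in preNeu and 873, 909.7 and 1049.9 in matNeu, so that the level in matNeu overlapped that in GMPs. Selplg, the ligand through which neutrophils roll on selectins, was at 598 ± 38.1 TPM in GMPs, 162 ± 15.7 in preNeu and 3555 ± 316 in matNeu (SD, n = 3). Gcnt1, an enzyme that branches the O-glycans of selectin ligands, was at 24.1 ± 2.38 TPM in GMPs, 2.77 ± 1.14 in preNeu and 127 ± 7.06 in matNeu. Glipr1, a secreted or membrane-bound CAP-family protein, was at 361 ± 77.1 TPM in GMPs, 48.4 ± 7.39 in preNeu and 933 ± 81.2 in matNeu. Emilin2, an extracellular matrix glycoprotein, was at 32.0 ± 2.48 TPM in GMPs, 1.81 ± 2.00 in preNeu and 519 ± 74.4 in matNeu. Thbd (thrombomodulin), Il10ra (a chain of the interleukin-10 receptor), Itgb7 (an integrin chain), P2ry2 (a nucleotide receptor), Ninj1 and Tspan13 had preNeu means of 1.23, 2.98, 5.87, 2.87, 37.7 and 4.0 TPM.

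The interferon and innate sensing group held 12 genes with a median ratio of 4.62, of which 7 met the rule after rescaling. Ly6e, an interferon-inducible surface protein, was the most abundant of them, at 2839, 1994 and 2558 TPM in the 3 GMP libraries, 176, 184 and 144 in preNeu and 1163, 1035 and 1032 in matNeu. Ifitm1, which encodes an antiviral membrane protein, was at 29.4, 45.8 and 35.7 TPM in the 3 GMP libraries, 1.30, 2.41 and 5.04 in preNeu and 547, 576 and 491 in matNeu. The preNeu libraries of Ifitm1 were the lowest, and its matNeu libraries were above all GMP libraries. Irf5, a transcription factor downstream of Toll-like receptors, was at 58.5 ± 5.06 TPM in GMPs, 6.30 ± 2.75 in preNeu and 118 ± 15.2 in matNeu (SD, n = 3), and Trex1, a DNA exonuclease that limits sensing of self DNA, at 52.8 ± 9.83 TPM in GMPs, 11.6 ± 1.62 in preNeu and 117 ± 11.9 in matNeu. The GTPase genes Gbp2 and Gbp7, the tripartite motif gene Trim30a and the inflammasome sensor gene Nlrp1a had ratios of 4.67, 3.45, 3.53 and 11.1. Tgtp2, Gvin1, Ifi209, the Gbp genes and H2-Q6, a class I gene, have close copies among which reads may have been split, so that their values are uncertain. Tgtp1, the near copy of Tgtp2, had means of 2.62, 0.208 and 5.20 TPM in GMPs, preNeu and matNeu.

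The lysosome, granule and protease group held 8 genes, with median levels of 135 TPM in GMPs, 21.2 in preNeu and 177 in matNeu. Srgn, the proteoglycan that packs granule contents, was at 1726, 1318 and 1571 TPM in the 3 GMP libraries, 490.4, 461 and 392 in preNeu and 3458, 3295 and 3138 in matNeu. The preNeu libraries were the lowest but still above the level of most other dip genes, and Srgn no longer met the rule after rescaling. Gm2a, an activator of ganglioside breakdown in lysosomes, was at 157, 159 and 159.8 TPM in the 3 GMP libraries, 12.0, 10.4 and 15.2 in preNeu and 279, 190.2 and 317 in matNeu. Creg1 and Ctsa, a lysosomal glycoprotein and the protective carboxypeptidase cathepsin A, had ratios of 3.96 and 3.49, and Ctsl, an endopeptidase, and Cstb, an inhibitor of such proteases, had 3.55 and 3.03. Only 2 of the 8, Gm2a and Rnase6, met the rule after rescaling.

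Among 11 genes of lipid, amino acid and drug metabolism, Haao, a dioxygenase of the kynurenine pathway, was at 79.5, 55.0 and 67.3 TPM in the 3 GMP libraries, 3.39, 5.51 and 4.02 in preNeu and 101, 136 and 93.0 in matNeu. Pnpla2, the lipase that opens triglyceride stores, was at 117 ± 13.2 TPM in GMPs, 37.6 ± 7.78 in preNeu and 332 ± 90.3 in matNeu (SD, n = 3). Ugt1a7c and Ugt1a6a, which conjugate glucuronic acid to drugs and other small molecules, had ratios of 14.6 and 26.5. They are alternative starts of one locus that share their last exons, so that the 2 are not independent genes. Ugt1a6a was at 18.1, 8.65 and 7.92 TPM in the 3 GMP libraries, 0, 0.198 and 1.11 in preNeu and 20.9, 13.8 and 16.9 in matNeu, close to the 10 TPM limit in GMPs.

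The transcription and chromatin group held 12 genes. Tgif1 and Tgif2, homeodomain repressors that restrain TGF-beta signalling, were at 84.8 ± 8.91 TPM in GMPs, 2.28 ± 1.03 in preNeu and 27.5 ± 10.8 in matNeu, and at 14.1 ± 1.07 TPM in GMPs, 0.947 ± 0.675 in preNeu and 26.6 ± 5.44 in matNeu (SD, n = 3). Trps1, a GATA-type repressor, was at 15.1, 11.8 and 9.48 TPM in the 3 GMP libraries, 0.501, 0.329 and 0.620 in preNeu and 28.3, 29.4 and 51.1 in matNeu. Zeb2, a zinc-finger repressor of myeloid and epithelial programmes, was at 145 ± 12.9 TPM in GMPs, 6.26 ± 1.48 in preNeu and 32.1 ± 6.15 in matNeu, Mef2d at 60.9 ± 9.95 TPM in GMPs, 7.15 ± 0.558 in preNeu and 30.2 ± 13.9 in matNeu and Mafk at 33.8 ± 6.99 TPM in GMPs, 11.1 ± 1.41 in preNeu and 65.0 ± 8.25 in matNeu. Mta3, a subunit of NuRD, was at 29.6 ± 5.21 TPM in GMPs, 7.35 ± 1.28 in preNeu and 24.4 ± 4.46 in matNeu, and did not meet the rule after rescaling. Chd4, which is not a dip gene, was at 79.8 ± 7.60 TPM in GMPs, 42.2 ± 6.41 in preNeu and 31.7 ± 4.36 in matNeu. Pcgf2 and L3mbtl3, both tied to Polycomb-type repression, and Wdr77, the partner of the methyltransferase PRMT5, completed the chromatin genes with ratios of 5.04, 3.05 and 3.50. Hist1h2bc, a histone gene, was at 16.8, 14.8 and 15.1 TPM in the 3 GMP libraries, 3.50, 3.18 and 2.39 in preNeu and 218, 149 and 159 in matNeu.

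Of 16 genes of signalling, cell cycle and stress response, 10 met the rule after rescaling. Ccnd2 (cyclin D2) was at 214, 174 and 281 TPM in the 3 GMP libraries, 15.7, 7.69 and 9.52 in preNeu and 69.0, 68.4 and 73.9 in matNeu, so that it was low in the dividing preNeu. Pdcd4, an inhibitor of translation, Pik3ip1, which restrains PI3 kinase, and Anxa6 were higher in GMPs than in matNeu, with GMP means of 126, 96.0 and 160.1 TPM and preNeu means of 4.73, 7.98 and 13.5 TPM. Ppp1r15a, which reverses the block of translation under stress, was at 18.5 ± 5.44 TPM in GMPs, 2.18 ± 1.26 in preNeu and 49.1 ± 18.1 in matNeu (SD, n = 3). Dusp2, a phosphatase of MAP kinases, was at 5.52, 12.0 and 59.5 TPM in the 3 GMP libraries, 4.39, 3.93 and 2.86 in preNeu and 7.08, 7.61 and 23.4 in matNeu, and a single GMP library carried most of its mean. The other 25 genes comprised 7 of traffic, cytoskeleton and autophagy, 4 of mitochondria and genome maintenance, and 14 that are little characterised or were not placed. Of these 25, 8 met the rule after rescaling.

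Beyond the rule, GMPs and matNeu could be compared. By limma on log2(TPM + 1), with p-values adjusted over 13061 genes by Benjamini-Hochberg, 41 dip genes rose and 17 fell from GMPs to matNeu, and 40 did not pass the test. Over all genes tested, 22.8% were higher and 54.1% lower. The limit of 10 TPM in matNeu keeps out genes that fell far, so these shares are not comparable. The genes that rose most were Emilin2, Ifitm1 and Tspan13, a tetraspanin, with log2 differences of 3.97 (SE 0.37, adjusted p = 2.26e-06), 3.85 (SE 0.30, adjusted p = 5.83e-07) and 3.78 (SE 0.19, adjusted p = 1.72e-08). The genes that fell most were Ifi209, a sensor of the PYHIN family, Pdcd4 and Zeb2, with -3.72 (SE 0.30, adjusted p = 6.70e-07), -3.01 (SE 0.18, adjusted p = 5.02e-08) and -2.16 (SE 0.21, adjusted p = 2.77e-06). Ifi209 stood at 174, 158 and 146 TPM in the 3 GMP libraries, 2.13, 1.82 and 5.64 in preNeu and 9.89, 10.5 and 13.3 in matNeu, so that the level regained in matNeu was a small part of that in GMPs. The median of all genes was -0.92 on this scale and -0.16 after median-ratio rescaling, under which 74 dip genes rose and 8 fell, where 35.3% of all genes were higher and 41.3% lower. The 6 genes named here kept their direction and passed the test on both scales.

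**Figure D2:**
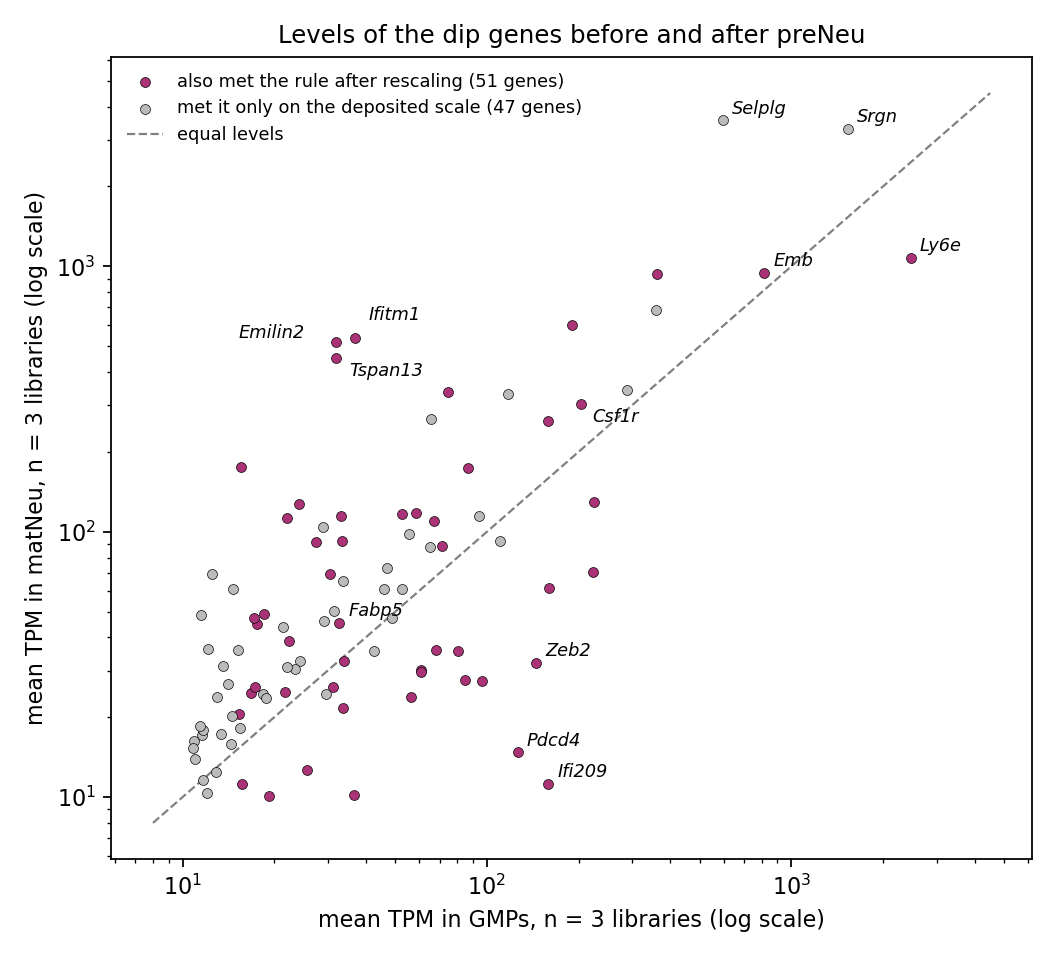
Mean TPM in GMPs (x axis, log scale) against mean TPM in matNeu (y axis, log scale) for the 98 dip genes, each mean over 3 libraries. Purple points are the 51 genes that also met the rule after median-ratio rescaling and grey points the other 47; 70 genes lie above the dashed line of equal levels and 28 below it.

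Lists of related genes showed how far the pattern went beyond the dip genes. In limma's fit a gene that fell from GMPs to preNeu and then rose from preNeu to matNeu, each with an adjusted p under 0.05, was one of 845, or 6.47% of all genes tested. Alone, 44.3% fell and 14.7% rose from GMPs to preNeu, and 22.9% rose and 39.8% fell from preNeu to matNeu. Without the dip genes the share of all genes was 5.79%. After rescaling it was 4.97% with and 4.30% without the dip genes. Of 16 other genes of MHC class I presentation, 8 (50%) fell and rose again, namely H2-K1, H2-Q7, H2-T23, Nlrc5, Psmb8, Psmb9, Tap1 and Tap2, which encode class I chains, their activator, subunits of the immunoproteasome and the peptide transporter. After rescaling 5 of the 16 did so. Of 21 other lysosome and antigen processing genes, 7 (33.3%) fell and rose again on either scale. Of 45 other interferon-stimulated genes, 10 (22.2%) did so, and 4 after rescaling. In that list 38 of the 45 rose from preNeu to matNeu. From GMPs to preNeu 13 fell, 11 rose and 21 did not pass the test, with a median log2 difference of -0.22. Most of its members were therefore not called lower in preNeu than in GMPs. Of 29 other cytokine and chemokine receptor genes, 4 fell and rose again (Ifnar1, Ifnar2, Il6ra and Tnfrsf1b). After rescaling 3 of 30 such receptor genes did so (Ifnar1, Ifngr1 and Il6ra). Among 11 MHC class II genes 1 did so on either scale. The same libraries entered both steps, and these counts are descriptions of lists.

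The summed levels of markers of other cells also differed between the stages. The 20 monocyte and macrophage markers, Csf1r among them, summed to 1713 to 2104 TPM per GMP library, while preNeu libraries held 254 to 327 TPM and matNeu libraries 672 to 956 TPM, and none was at 0 in all libraries of a type. A few genes made up much of these sums. Chosen after their values were seen, F13a1, a coagulation factor chain, was at 906 ± 92.5 TPM in GMPs, 13.3 ± 5.77 in preNeu and 3.06 ± 1.74 in matNeu (SD, n = 3), and Mpeg1, a pore-forming protein of phagocytes, at 79.2 ± 13.6 TPM in GMPs, 45.0 ± 4.16 in preNeu and 359 ± 72.9 in matNeu. Of the 17 markers tested other than Csf1r, 8 fell and 7 rose from GMPs to preNeu, 8 fell and 2 rose from preNeu to matNeu, and 1, Mpeg1, fell and rose again (0 after rescaling). C1qa, a complement gene of macrophages, was at 1.42 ± 0.962 TPM in GMPs, 24.9 ± 2.79 in preNeu and 6.68 ± 0.501 in matNeu. The 13 B cell markers summed to 544 to 662, 300.4 to 370.1 and 682 to 917 TPM in GMPs, preNeu and matNeu. Of the 12 tested, 8 rose and 2 fell from GMPs to preNeu, and 1, Ighm, fell and rose again. In all GMP libraries 5 of the 13 were at 0. The 13 dendritic cell markers summed to 121 to 129.9, 14.3 to 29.2 and 65.8 to 79.7 TPM in the same order, with 4 at 0 in all GMP libraries and 1 in all matNeu libraries. Of the 7 tested, 1 (Bst2) fell and rose again.

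Like the monocyte and macrophage sums and the dendritic cell sums, those of 3 further lists stayed below the GMP range in matNeu. The 15 T and NK cell markers summed to 509 to 650.3, 223 to 255 and 18.4 to 23.5 TPM. The 14 eosinophil, basophil and mast cell markers summed to 1548 to 1750.4, 353 to 539 and 51.0 to 59.9 TPM. The 16 erythroid and megakaryocyte markers summed to 67.9 to 98.2, 29.0 to 56.3 and 18.6 to 41.6 TPM, so that preNeu and matNeu overlapped. Only Csf1r among the dip genes belonged to any of these 6 lists. The part of other cells in the dip was not tested.

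The question put to the chromatin data was whether CHD4 and H3K4me2 at these genes differed from that at other genes. CHD4 summits lay at the promoter (2 kb upstream to 500 bp downstream of the gene start) of 28 of the 98 dip genes in WT GMPs, or 28.6% (95% Wilson interval 20.6 to 38.2%). Over all 19553 protein-coding genes the share was 8.1%. Among the 4191 other genes of at least 10 TPM in GMPs and matNeu it was 13.2%, and the difference of 15.4 points (Newcombe interval 7.33 to 25.1) excluded 0. Against 1437 genes high in GMPs only, whose preNeu and matNeu means were both at most a GMP mean divided by 3, the difference was 17.9 points (9.74 to 27.7). Against 688 genes high in matNeu only, chosen the same way, it was -0.21 points (-8.94 to 9.95). These comparison sets overlap one another in part. The share was 33.3% (22.0 to 47.0%) among the 51 genes that also met the rule after rescaling. The difference was 15.9 points (7.71 to 25.6) against genes within the GMP quartiles of the dip genes. Intervals cover counting error over genes only, since CHD4 was mapped in 1 library per genotype.

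Of the groups by role, the interferon and innate sensing genes held most of these promoters, 7 of 12: Gbp2, Gbp7, Gvin1, Ifi209, Ly6e, Nlrp1a and Trim30a. The sequence at the Gvin1 summit is largely the same as that at Gm4070, also among the 28. Reads there may have been split, so these summits may not be separate sites. Metabolism followed with 5 of 11, among them Fabp5, Haao and both Ugt1a starts. The lysosome and granule group had 1 of 8, at Gm2a. All 28 genes also had an H3K4me2 peak at the promoter in GMPs, and 14 of the 28 had an ATAC peak there. The 5 strongest promoter peaks, by fold enrichment over background as the peak caller gave it, were at Ugt1a7c (65.8), St8sia4 (32.6), Thbd (26.1), Gbp7 (25.8) and Dglucy (24.2), a gene of glutamate metabolism, where the median over all WT peaks was 7.72.

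The sequence of 101 bases centred on the summit is printed for these 5 and for Gng2, Ly6e and Haao, in GRCm38 and on the plus strand. Capitals mark GAGGAAGT, the core bound by the ETS factor SPI1, or its reverse complement, and lower case the rest. Gng2, Ly6e and Haao all hold GAGGAAGT and were not the next strongest peaks, so the printed windows overstate how common it is.
Ugt1a7c, chr1:88095030-88095130: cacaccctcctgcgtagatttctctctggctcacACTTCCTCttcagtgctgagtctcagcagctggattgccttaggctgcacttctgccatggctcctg
St8sia4, chr1:95667689-95667789: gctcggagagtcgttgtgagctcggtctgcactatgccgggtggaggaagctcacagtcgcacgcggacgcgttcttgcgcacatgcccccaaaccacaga
Thbd, chr2:148408199-148408299: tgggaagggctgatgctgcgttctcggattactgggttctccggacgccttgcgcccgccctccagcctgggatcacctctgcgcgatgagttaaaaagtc
Gbp7, chr3:142530123-142530223: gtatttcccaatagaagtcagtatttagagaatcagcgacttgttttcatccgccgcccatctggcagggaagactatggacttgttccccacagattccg
Dglucy, chr12:100778428-100778528: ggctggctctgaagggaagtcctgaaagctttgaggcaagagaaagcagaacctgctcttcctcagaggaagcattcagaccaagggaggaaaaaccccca
Gng2, chr14:19977165-19977265: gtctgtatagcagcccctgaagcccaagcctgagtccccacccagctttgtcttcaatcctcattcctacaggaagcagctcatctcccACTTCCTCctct
Ly6e, chr15:74954939-74955039: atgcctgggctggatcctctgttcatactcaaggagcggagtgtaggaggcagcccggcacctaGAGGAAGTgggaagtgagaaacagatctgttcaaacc
Haao, chr17:83847938-83848038: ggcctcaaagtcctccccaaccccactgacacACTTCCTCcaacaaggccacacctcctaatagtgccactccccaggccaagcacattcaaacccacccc

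The Ugt1a7c summit lay 18 bases downstream of the gene start, and those of St8sia4, Thbd, Gbp7, Dglucy, Ly6e and Haao lay at -168, -61, -169, -579, -62 and -25 bases, where minus is upstream. The Gng2 summit was 412 bases downstream. GAGGAAGT was present in 5 of the 28 windows (17.9%), at Ugt1a7c, Gng2, Ly6e, Haao and Tmem268, beside 7.56% of the windows at all 35728 CHD4 summits on the main chromosomes. AAATCA, the core that GFI1 binds, was in 4 of the 28 (14.3%), at Gbp2, Gm4070, Il10ra and Ugt1a6a, beside 5.62%. Of the other motifs searched, TGANTCA (AP-1) was in 2 (7.14%, beside 5.53%) and the kappaB motif in 1 (3.57%, beside 0.97%). TGACGTCA (CREB and ATF) and the CArG box (SRF) were in 0, beside 0.05% and 0.58%. Both strands were searched, and a match is no evidence of binding. The 28 windows all lie at promoters, whereas the comparison windows lie anywhere on the main chromosomes. Shares of such unlike sites cannot show what is particular to the dip genes.

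Within 10 kb of the gene start, 53 dip genes (54.1%, 44.2 to 63.6%) had at least 1 CHD4 summit, with 161 peaks in all. The share was 31.8% among the other genes of at least 10 TPM, 24.2% among genes high in GMPs only and 53.1% among genes high in matNeu only. Of the 161 peaks, 26 (16.1%, 11.3 to 22.6%) overlapped a peak in Gfi1-/- GMPs by at least 1 bp and 135 did not. Over all 35790 WT peaks 18.5% (18.1 to 18.9%) did so, inside the interval for the dip genes. This WT list is several times longer than the set of CHD4 peaks the paper reports, so these shares are not shares of that set. For sites with CHD4 but not GFI1, the paper reports that CHD4 mostly stayed in place without GFI1. The Gfi1-/- list held 7316 peaks from 1 library, the depth of which is not known. At the promoter 7 of the 28 genes had a Gfi1-/- summit too: Dglucy, Gbp7, Pik3ip1, St8sia4, Thbd, Trim30a and Ugt1a7c, which include the 5 strongest WT peaks. This share (25%, 12.7 to 43.4%) stood beside 16.5% (13.6 to 19.8%) of the 552 such promoters among the other genes of at least 10 TPM, 22.2% of 153 among genes high in GMPs only and 27.8% of 198 among genes high in matNeu only, and the interval for the dip genes held all 3 values. Gng2 and Zeb2 had most CHD4 peaks within 10 kb (9 each), of which 1 and 0 were overlapped in Gfi1-/- GMPs.

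**Figure D3:**
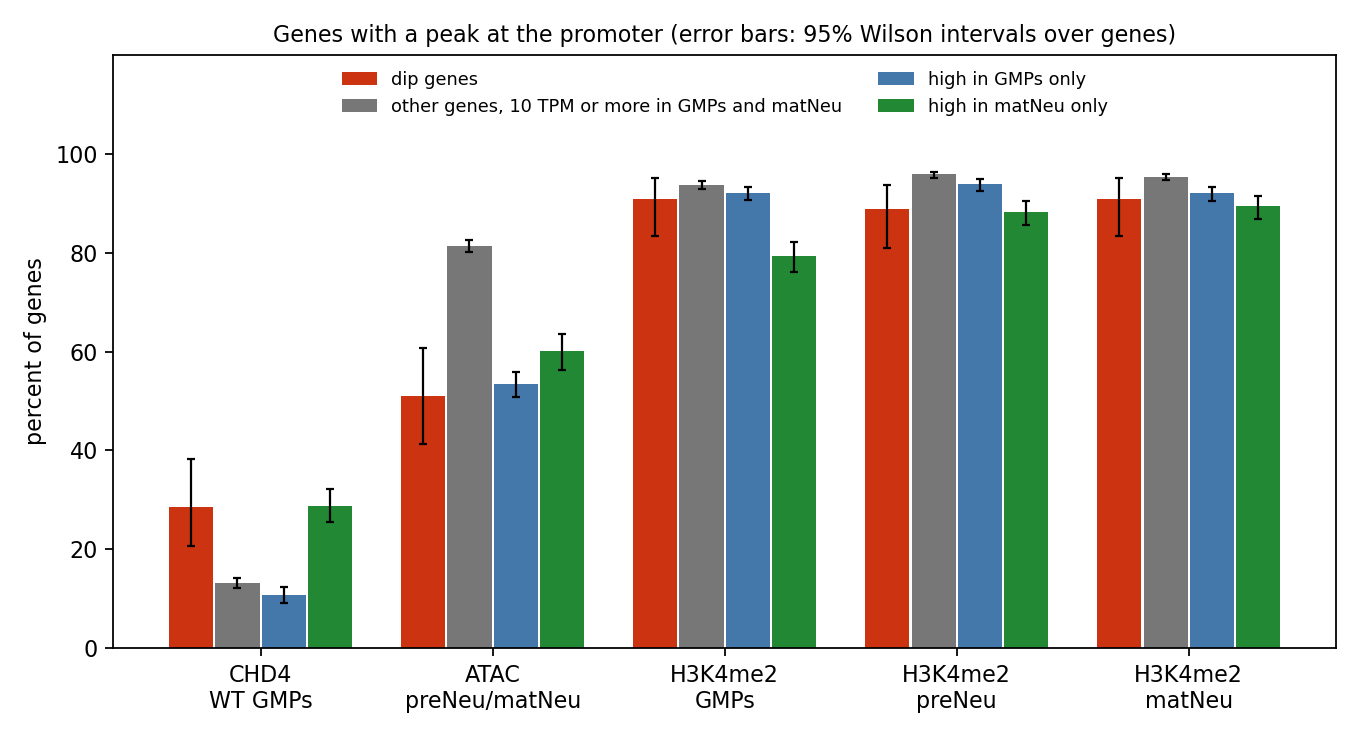
Percent of genes with a peak at the promoter (y axis) for 5 peak lists (x axis), in the 98 dip genes, 4191 other genes of at least 10 TPM in GMPs and matNeu, 1437 genes high in GMPs only and 688 high in matNeu only; bars are shares and error bars 95% Wilson intervals over genes. The CHD4 share of the dip genes (28.6%) is near that of genes high in matNeu only (28.8%), and their ATAC share (51.0%) is below that of the other expressed genes (81.4%).

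ATAC peaks of neutrophils were found at the promoter of 50 dip genes (51.0%, 41.3 to 60.7%), where all protein-coding genes had 34.7%. The preNeu and matNeu lists were identical apart from their names and were used as 1 list, so that the stages cannot be told apart. The other genes of at least 10 TPM had such a peak in 81.4%, a difference of -30.4 points (-40.2 to -20.6). Genes high in GMPs only had 53.4% and genes high in matNeu only 60.0%, and the intervals of both differences included 0 (-12.4 to 7.66 points and -19.4 to 1.35 points).

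H3K4me2 was at the promoter of most dip genes in each stage. The share was 90.8% (83.5 to 95.1%) both in GMPs and in matNeu, and 88.8% (81.0 to 93.6%) for preNeu. In the order GMPs, preNeu, matNeu the shares over all protein-coding genes were 58%, 57.9% and 55.4%, and over the other genes of at least 10 TPM 93.7%, 95.8% and 95.3%. The difference from the latter was -7.07 points (-14.9 to -2.19) for preNeu. It was -2.91 points (-10.3 to 1.44) for GMPs and -4.48 points (-11.9 to -0.15) for matNeu. Against genes high in matNeu only the difference was 0.55 points (-7.52 to 6.05) for preNeu. It was 11.5 points (3.56 to 16.8) for GMPs and 1.43 points (-6.22 to 6.39) for matNeu. Against genes high in GMPs only it was -5.03 points (-12.9 to -0.0015) for preNeu. For GMPs and matNeu it was -1.25 points (-8.72 to 3.29) and -1.18 points (-8.65 to 3.36). A promoter peak was present in all 3 lists for 87 dip genes and in none for 8. These were Emb, Gcnt1, Rnase6, Srgn, Gm10181, Gm11027, Gm11032 and Olfr784. When any annotated transcript start counted, the first 4 were marked in preNeu as well, and the numbers became 94, 93 and 94 of 98. By that measure Ifi209 was the only gene marked in GMPs and matNeu but not in preNeu. By gene starts the same was true of Ifi209, whereas Csf1r was marked in GMPs only and Ifitm1 in matNeu only. The calls at Csf1r and Ifitm1 rest on a single start of each gene and do not show a mark limited to 1 stage, since the counts rose when other starts were used.

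The width of the mark around the start also differed between the dip genes and other genes. The H3K4me2 peaks covered a median of 2373 of the 4000 bases around the start in GMPs, 2544 in preNeu and 2402 in matNeu. In the other genes of at least 10 TPM the medians were 2354, 3096 and 2728. Coverage was greater in preNeu than in GMPs for 60 of 98 dip genes (61.2%, 51.3 to 70.3%), against 87.0% of those genes, a difference of -25.8 points (-35.8 to -16.7). Genes high in GMPs only had 70.4% (difference -9.13 points, -19.3 to 0.23) and genes high in matNeu only 80.1% (-18.9 points, -29.2 to -9.28). From preNeu to matNeu coverage was greater for 32 dip genes (32.7%), beside 12.3% of the other genes, a difference of 20.3 points (11.8 to 30.2), and beside 7.17% and 41.4% of the genes high in GMPs only and in matNeu only. More dip genes lost coverage in this step than gained it: coverage was smaller in matNeu than in preNeu for 51 of the 98, and for 3134 of the 4191 other genes. From GMPs to preNeu it was smaller for 24 and 292 of them. At Fabp5 the covered length was 1786, 1546 and 1353 bases in GMPs, preNeu and matNeu, and at St8sia4 4000, 3499 and 3570 bases. The preNeu list also covered the most bases over the genome (97929252, against 49843354 in GMPs and 80399528 in matNeu), and with 1 library per stage only the contrast with other genes in the same lists can be read.

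**Figure D4:**
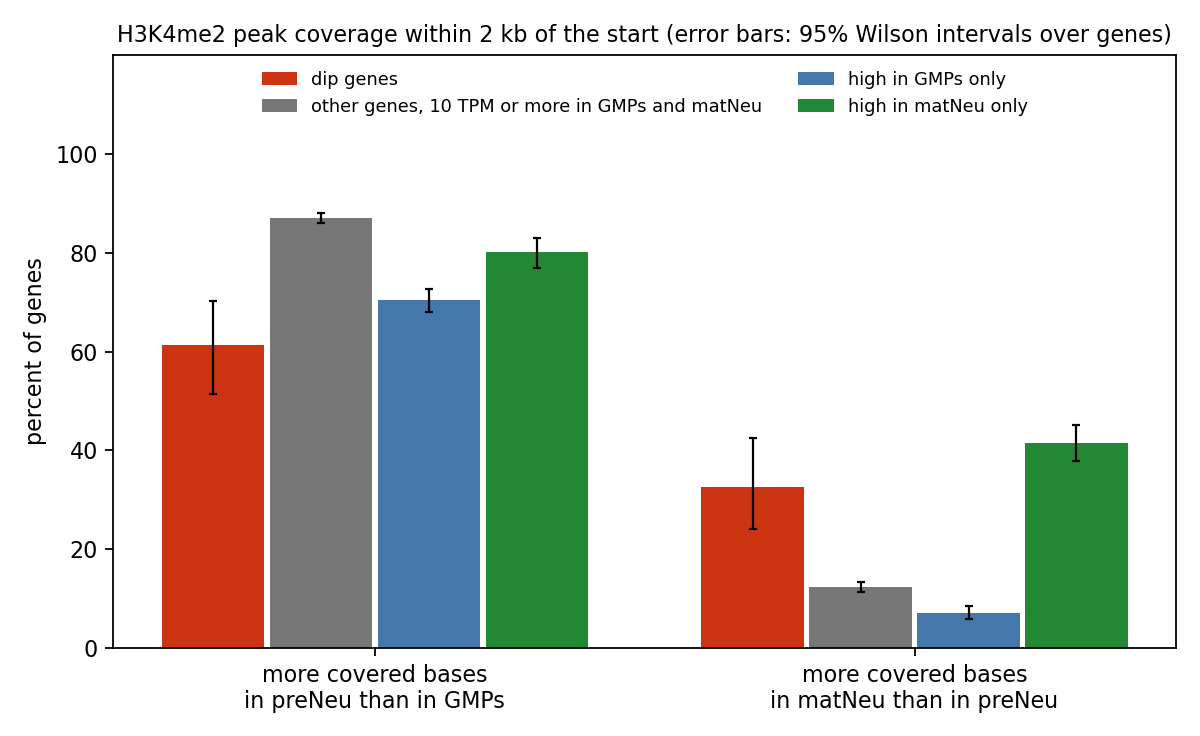
Percent of genes (y axis) whose H3K4me2 peaks covered more of the 4000 bases around the start in preNeu than in GMPs (left) or in matNeu than in preNeu (right), for the 98 dip genes and the 3 comparison sets; error bars are 95% Wilson intervals over genes. The dip genes gained coverage in preNeu less often (61.2%) than the other expressed genes (87.0%) and in matNeu more often (32.7% against 12.3%), although 51 of the 98 had less coverage in matNeu than in preNeu.

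By structure the dip genes had a median length of 16910 bases, 6 exons in the longest transcript and 2918 spliced bases, where the other genes of at least 10 TPM had 22947 bases, 8 exons and 3248 spliced bases. In the 250 bases before to 50 after the start the median number of CpG dinucleotides was 13.5, beside 20 in those genes, 17 in genes high in GMPs only, 11 in genes high in matNeu only and 11 in all protein-coding genes. GAGGAAGT was in 6 of 98 such promoters (6.12%, all promoters 3.31%) and AAATCA in 21 (21.4%, all promoters 13.8%). TGANTCA, the letters bound by AP-1, was in 7 (7.14%, all promoters 6.94%) and TGACGTCA, those bound by CREB and ATF factors, in 2 (2.04%, all promoters 2.40%). The kappaB motif was in 8 (8.16%, all promoters 4.95%) and the CArG box of SRF in 0 (all promoters 1.43%). Shares follow in the other genes of at least 10 TPM, genes high in GMPs only and genes high in matNeu only. GAGGAAGT was in 3.69%, 4.33% and 4.94%, and AAATCA in 8.83%, 10.8% and 12.1%. TGANTCA was in 4.21%, 5.65% and 8.28%, and TGACGTCA in 3.64%, 2.58% and 3.05%. The kappaB motif was in 4.74%, 4.40% and 6.25%, and the CArG box in 1.27%, 1.12% and 1.16%. Both strands were searched, and the letters are a description of the sequence.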

How the data were processed

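The dip genes and all gene lists were chosen with earlier results of these data known. RNA levels were used as deposited by the authors, in TPM per gene. The methods name Tophat, HTSeq and DESeq, and the submitters' processing notes name kallisto 0.44.0, BWA 0.7.17 and MACS2 2.1.0 without roles, so how transcripts were summed is not given in the sources used here, and TPM keeps no depth. Peak lists carry the authors' fold enrichment (a ratio) and −log10 q-value per peak. Their read depth is unknown. Those of GFI1 and H3K4me3 in GMPs did not match GRCm38 and were not used.

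Genes were matched to GENCODE M21 on GRCm38 by identifier. GMPs and matNeu were compared on the log2(TPM + 1) scale by limma (version 3.58.1, trend on, R 4.3.3). Genes that reached 1 TPM in 3 or more libraries were tested at an adjusted p of 0.05. Fold changes on this scale understate those of low genes. Shares used Wilson intervals and their differences Newcombe intervals at 95% (statsmodels 0.14.6). Genes were named by fixed criteria: the 12 deepest and 12 most abundant, list members, those at the limits, the 3 largest changes each way, the 5 strongest CHD4 promoter peaks and genes without H3K4me2. Other members named as examples of a role were chosen after their values were seen. Alternatives covered scaling, limits, pseudocount, filter, peak threshold and left-out libraries.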

Additional observations from a re-analysis of the deposited data

How the results depend on the processing

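The number of dip genes was 98. It was 62 after median-ratio rescaling, 62 with a minimum of 20 TPM, 210 when a 2-fold difference sufficed and 51 when 4-fold was required, and it ranged from 87 to 109 when 1 library was left out. After upper-quartile rescaling 77 genes met the rule, of which 51 were dip genes. The count called between GMPs and matNeu moved with scaling: 74 higher and 8 lower after median-ratio rescaling, against 41 and 17, and 51 to 60 in all with 1 library left out. With the replicate block 59 were called (42 higher, 17 lower), against 58. Same-numbered libraries of different types deviated together with correlations of -0.039 to 0.123, and differently numbered ones with -0.128 to 0.071. Values from 3 libraries per type cannot decide whether the replicate numbers pair the samples. Other interferon-stimulated genes called lower in preNeu than in GMPs numbered 7 after rescaling, against 13.

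The CHD4 share was 41.8% when any annotated transcript start counted. The H3K4me2 share in GMPs was 34.7% at a −log10 q of at least 5, with a difference of -0.41 points from the other expressed genes. It was 48.0%, 53.1% and 50.0% in GMPs, preNeu and matNeu when 50% of the promoter had to be covered, with differences from the other genes of -0.05, -24.6 and -14.1 points, and 95.9%, 94.9% and 95.9% with any transcript start. The difference in matNeu no longer excluded 0 with equal numbers of peaks (-4.22 points) or in the 51 genes (-5.10 points). The ATAC share was 16.3% at a −log10 q of at least 5 and 65.3% with any transcript start, with differences of -40.3 and -23.7 points. Depth is unknown for all lists. The settings with any transcript start for H3K4me2 and ATAC, the counts for interferon-stimulated genes, the width of H3K4me2 and the comparison without the left-out families were added after seeing the data. That last one left the CHD4, H3K4me2 and ATAC differences on the same side of their thresholds, with a CHD4 difference of 15.2 points.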

Other observations

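The rule took protein-coding genes only. Another 27 entries of the table with a different transcript type had means of the same kind, among them 8 typed as processed transcripts (Ap5s1, Arhgap26, Nlrc5, Pisd-ps1, Tlcd2, Tmem156, Tpm4 and Trpv2), 7 typed as retained introns (Arrdc2, Focad, H2-Q5, Sgip1, Sirt5, Trim26 and Wipi2) and 1 polymorphic pseudogene, Clec7a, the beta-glucan receptor. The 11 genes that met the rule after median-ratio rescaling alone included Aim2, a DNA sensor, Ern1, a sensor of unfolded proteins, and Galnt6, an enzyme that starts O-glycans.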
